A study of Homo sapiens with 6 samples.

Results

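CCN1, CCN2, ANKRD1, THBS1, AMOTL2, LATS2, AJUBA, AXL, CRIM1 and NUAK2 are genes widely used as readouts of the transcriptional coactivators YAP and TAZ. Their transcripts were followed in T24 cells given oxidized low-density lipoprotein (ox-LDL) or vehicle. Members were taken as the probe sets whose platform gene symbol is one of these 10 names. A probe set was found for 9 of the 10, with 1 probe set each, among 17687 named genes in all; AMOTL2 had none under its symbol and is not analysed here. The members were selected on the differences between the ox-LDL and vehicle arrays of this data set, so these differences are given as a description. No p-value is given for a member, and counts of members called are printed for completeness and support nothing. For the other gene lists, too, results of these arrays were known when they were drawn up.

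YAP (gene YAP1) and TAZ (gene WWTR1) do not bind DNA themselves; they enter the nucleus and act through the TEAD family of DNA-binding proteins. The Hippo kinases STK3 and STK4, with their partner SAV1, activate LATS1 and LATS2, which phosphorylate YAP and TAZ and hold them in the cytoplasm. Cell spreading, tension of the actin skeleton, cell density and lipid mediators in serum are known inputs, and several targets, LATS2, AMOTL2, AJUBA and NUAK2 among them, encode regulators of the same pathway. In carcinomas, including those of the bladder, YAP is studied as a factor of growth and invasion.

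T24 is an established human cell line from a carcinoma of the urinary bladder. Cells kept without serum for 12 h received vehicle (3 arrays) or ox-LDL at 20 µg/mL (3 arrays) for 24 h, with both groups starved alike. Ox-LDL is LDL, the particle that carries most blood cholesterol, after oxidation. Expression is given as log2 values made by the authors with RMA, a method that puts all arrays on a common distribution, so 1 unit is a doubling. The labels do not say whether the arrays of a group came from separate cultures, so SDs, intervals and p-values measure only how these samples vary, possibly for technical reasons. A free-text label calls the same arrays control siRNA and G9a siRNA, against all other labels; EHMT2, the gene of G9a, was 7.85 ± 0.19 in vehicle and 8.22 ± 0.14 with ox-LDL (SD, n = 3 each; log2 difference 0.37, SE 0.12, limma adjusted p = 0.125), not lower. The medians of the arrays ran from 7.11 to 7.18. Vehicle replicate 3 was unlike the rest: across probe sets it correlated at 0.979 to 0.988 with the other arrays, which correlated at 0.992 to 0.997 among themselves. Values without it are given for the members and where a call or size turned on it.

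The stretches of DNA before the transcription start of the members bear on how TEAD proteins could reach them. TEAD proteins bind the letters GGAATG, read on the other strand as CATTCC. Upstream windows of 250 bases were taken from RefSeq (GRCh38.p14) for 7 of the 9 measured members; CCN1 and CRIM1 had no entry. The letters were searched on both strands of these windows and of all 35116 windows in the table, of which 11.9% held at least 1 match, 0.928% at least 2 and 0.0797% at least 3. A match is a run of letters, not a shown binding site. Shown are the windows of the measured members with 1 listed start. Each runs 5′ to 3′ on the strand of the gene and ends at the base before the start, with matches in capitals. CCN2 lies at chr6:131951373-131951622 (minus strand), ANKRD1 at chr10:90921088-90921337 (minus), THBS1 at chr15:39580829-39581078 (plus), NUAK2 at chr1:205321746-205321995 (minus) and LATS2 at chr13:21061587-21061836 (minus).
CCN2: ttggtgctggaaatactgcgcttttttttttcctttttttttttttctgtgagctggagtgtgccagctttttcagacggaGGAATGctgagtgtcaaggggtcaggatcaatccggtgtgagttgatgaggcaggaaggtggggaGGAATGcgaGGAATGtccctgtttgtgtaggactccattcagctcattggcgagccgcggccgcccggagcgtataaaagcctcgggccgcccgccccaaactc
ANKRD1: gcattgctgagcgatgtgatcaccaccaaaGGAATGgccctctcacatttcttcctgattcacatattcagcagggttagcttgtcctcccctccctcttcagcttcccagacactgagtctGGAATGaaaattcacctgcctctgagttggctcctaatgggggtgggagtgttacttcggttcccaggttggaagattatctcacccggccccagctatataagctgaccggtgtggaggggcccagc
THBS1: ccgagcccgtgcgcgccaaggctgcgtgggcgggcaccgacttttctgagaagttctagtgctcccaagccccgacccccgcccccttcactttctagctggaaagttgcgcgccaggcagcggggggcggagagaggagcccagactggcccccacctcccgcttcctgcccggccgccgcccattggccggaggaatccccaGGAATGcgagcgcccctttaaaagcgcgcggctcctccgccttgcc
NUAK2: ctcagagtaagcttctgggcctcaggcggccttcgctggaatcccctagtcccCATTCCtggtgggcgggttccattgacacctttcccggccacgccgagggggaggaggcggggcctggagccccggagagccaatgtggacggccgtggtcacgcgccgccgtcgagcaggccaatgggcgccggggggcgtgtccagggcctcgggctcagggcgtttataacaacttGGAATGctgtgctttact
LATS2: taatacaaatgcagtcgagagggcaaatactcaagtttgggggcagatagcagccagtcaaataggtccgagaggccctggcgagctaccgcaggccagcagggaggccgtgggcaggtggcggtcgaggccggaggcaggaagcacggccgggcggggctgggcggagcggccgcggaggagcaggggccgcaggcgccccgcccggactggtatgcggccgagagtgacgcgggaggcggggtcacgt

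In the CCN2 window 3 matches began 169, 104 and 95 bases before the start, the last pair close together. ANKRD1 held 2, at 220 and 128 bases before the start, and NUAK2 held 2, at 197 bases as CATTCC and at 18 bases as GGAATG. THBS1 held 1, at 46 bases. The LATS2 window held 0, though the 50 bases after its start held 1. AJUBA and AXL are each listed with 2 starts; for both, the first window held 0 matches and the second 1, at 59 bases for AJUBA and 212 bases for AXL. In all, 6 of the 7 matched members had a match in some window, and 6 of their 9 windows did. Nothing is read from these counts. The members are known readouts of YAP and TAZ, which act through TEAD, so matches could be foreseen. The count by gene gives genes with 2 starts 2 windows, while the share over all windows is by window. Whether matches go with the size of a difference was not tested.

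The secreted members were higher with ox-LDL on every array. CCN1, a matricellular protein that binds integrins and promotes adhesion and migration, read 10.21, 10.29 and 10.27 (log2) in the vehicle samples, in the order of replicates 1 to 3, and 11.05, 10.96 and 10.97 in those given ox-LDL. The groups did not overlap: the lowest ox-LDL value lay 0.66 above the highest vehicle value. Its mean went from 10.26 ± 0.04 to 10.99 ± 0.05 (SD, n = 3 each), 1.66-fold (log2 difference 0.73, SE 0.07, 95% confidence interval 0.57 to 0.90). The arrays read whole cultures, so more transcript per cell and more cells expressing a gene cannot be told apart.

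CCN2, the connective tissue growth factor and a close relative of CCN1, had values of 8.37, 8.37 and 8.63 with vehicle and 9.30, 9.28 and 9.04 with ox-LDL. The third array of each group lay nearest to the other group, and a gap of 0.41 still parted them. Its mean went from 8.46 ± 0.15 to 9.21 ± 0.14 (SD, n = 3 each), 1.68-fold (log2 difference 0.75, SE 0.11, 95% confidence interval 0.49 to 1.02). The interval of CCN1 lay wholly inside the wider one of CCN2. Without vehicle replicate 3 the difference was 0.74 for CCN1 and 0.84 for CCN2.

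THBS1, which encodes thrombospondin-1, a matrix protein that activates latent transforming growth factor β and restrains vessel growth, differed more. Its values were 10.24, 10.24 and 10.46 with vehicle and 11.53, 11.60 and 11.55 with ox-LDL, a gap of 1.07 between the groups. The mean went from 10.31 ± 0.13 to 11.56 ± 0.04 (SD, n = 3 each), 2.37-fold (log2 difference 1.25, SE 0.09, 95% confidence interval 1.04 to 1.45). Over all 21448 probe sets tested, 21 had a larger difference upward.

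ANKRD1, a nuclear ankyrin-repeat protein that also sits at the sarcomere in muscle, had the largest difference of the 9 and the most uneven vehicle values. They were 6.31, 6.35 and 5.51, against 7.45, 7.54 and 7.68 with ox-LDL. The third vehicle array was low by 0.82 relative to the mean of the other two; 2.36% of all probe sets deviated more on that array. The mean went from 6.06 ± 0.47 to 7.55 ± 0.11 (SD, n = 3 each), 2.82-fold (log2 difference 1.50, SE 0.22, 95% confidence interval 0.97 to 2.02), and 8 probe sets had a larger difference upward. Without the third vehicle array the difference was 1.22, below the 1.32 of THBS1 in the same fit, so the order of these 2 members rests on that array.

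AJUBA, a LIM-domain scaffold at cell junctions that binds and restrains LATS kinases, had values of 9.35, 9.22 and 9.56 with vehicle and 9.80, 9.90 and 10.00 with ox-LDL. The groups were parted by 0.25, and the third array was the highest of each. Its mean went from 9.37 ± 0.17 to 9.90 ± 0.10 (SD, n = 3 each), 1.44-fold (log2 difference 0.52, SE 0.11, 95% confidence interval 0.27 to 0.78), and without vehicle replicate 3 the difference was 0.62.

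Both membrane proteins of the list were higher on every ox-LDL array. CRIM1, a transmembrane protein that binds bone morphogenetic proteins, had values of 10.78, 10.70 and 10.80 with vehicle and 11.30, 11.30 and 11.28 with ox-LDL. These ox-LDL values were the tightest of any member, with an SD of 0.01. The difference was 0.54 (SE 0.07, 95% confidence interval 0.38 to 0.70), 1.45-fold. AXL, the receptor tyrosine kinase for GAS6, had values of 11.39, 11.32 and 11.43 with vehicle and 11.80, 11.72 and 11.73 with ox-LDL, parted by 0.28. AXL was the smallest difference among the members with separate groups, at 0.37 (SE 0.07, 95% confidence interval 0.20 to 0.54), 1.29-fold. Without vehicle replicate 3 the differences were 0.56 for CRIM1 and 0.39 for AXL.

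The intracellular kinases of the list are NUAK2 and LATS2. NUAK2, a kinase of the AMPK family that acts on actin-myosin contraction and feeds back on YAP, had values of 7.22, 7.23 and 7.48 with vehicle and 7.64, 7.83 and 7.79 with ox-LDL. The groups were parted by 0.16, the narrowest gap of the 8 members without overlap, and the third vehicle array stood nearest to ox-LDL. The difference was 0.44 (SE 0.10, 95% confidence interval 0.20 to 0.68), 1.36-fold, or 0.53 without vehicle replicate 3. LATS2, the kinase that phosphorylates YAP and TAZ and is itself a known YAP target, had values of 8.52, 8.46 and 8.43 with vehicle and 8.46, 8.37 and 8.45 with ox-LDL. Its groups overlapped, and its difference of -0.04 (SE 0.07) had a 95% confidence interval of -0.21 to 0.12, which leaves out a doubling in either direction; without vehicle replicate 3 it was -0.06.

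**Figure D1:**
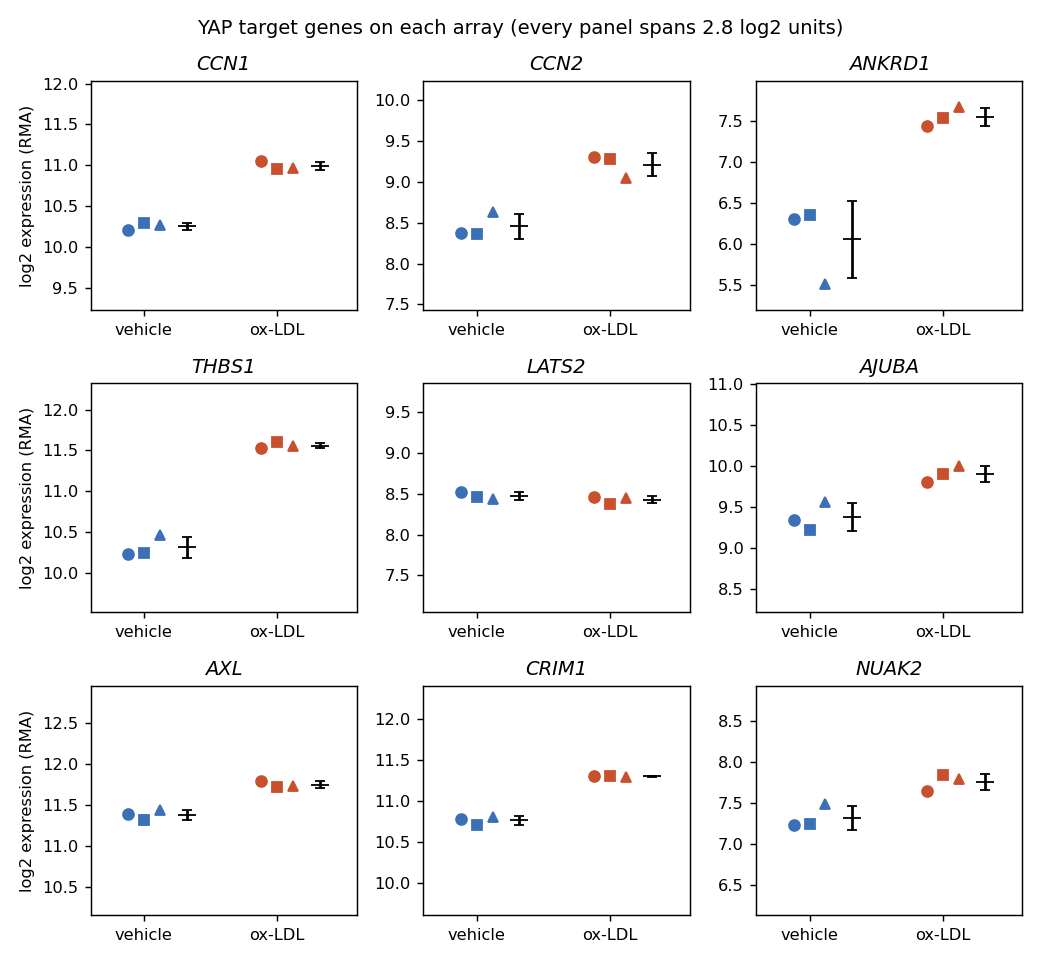
Log2 expression (vertical axis) of the 9 measured members on the 3 vehicle arrays (blue) and 3 ox-LDL arrays (red); circles, squares and triangles are replicates 1, 2 and 3, and black bars give the mean and SD. In 8 panels all red points lie above all blue ones, the LATS2 groups overlap, and the third vehicle array of ANKRD1 sits at 5.51, apart from 6.31 and 6.35.

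Of the 9 measured members, 8 had all ox-LDL arrays above all vehicle arrays, a pattern that 19.1% of all tested probe sets showed. Called here means a limma adjusted p (Benjamini-Hochberg over all probe sets) under 0.05; 7 members were called higher and 0 lower, against 6.77% of all probe sets called in either direction and 3.48% called higher, and the members without a call were NUAK2 and LATS2. The selection the study states (p up to 0.001, fold change 1.5 or more) was applied here to the unadjusted limma p, not to p-values of the study. It took CCN1, CCN2, ANKRD1 and THBS1, against 1% of probe sets taken upward. Nothing is read from these counts, since the list was drawn up from this comparison. The median difference of the 9 was 0.54, and that of all probe sets was -0.03. For the brighter probe sets (above the median level) it was 0.05. Dropping vehicle replicate 1, 2 or 3 left 5, 5 or 8 members called, and 806, 718 or 2670 of all 21448 probe sets. Dropping ox-LDL replicate 1, 2 or 3 left 2, 2 or 3 members called, and 309, 305 or 335 of all probe sets. With all arrays the total was 1451, so member counts rose or fell along with the total. The call gained without vehicle replicate 3 was that of NUAK2. These totals also belong beside the counts given below for other lists with an array dropped.

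**Figure D2:**
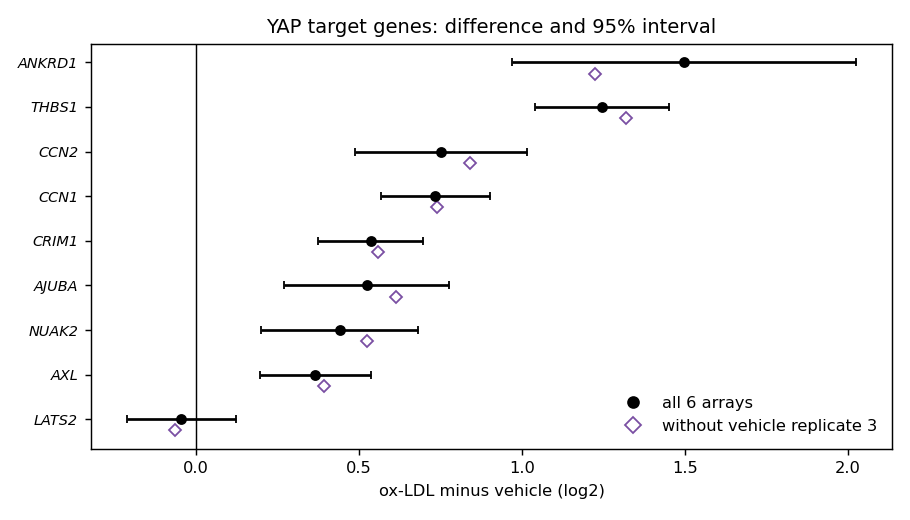
Difference of group means, ox-LDL minus vehicle, in log2 units (horizontal axis) for each measured member; black points with bars are the estimates from all 6 arrays with 95% confidence intervals, and open diamonds the estimates without vehicle replicate 3. Leaving that array out moves ANKRD1 from 1.50 to 1.22 and THBS1 from 1.25 to 1.32.

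Genes of a published YAP/TAZ target signature that are not members went both ways. Of 12 measured, 4 rose (3.48% of all probe sets did), 1 fell (3.29%) and 7 did not pass, and their median difference was 0.13. F3, which encodes tissue factor, the starter of blood coagulation, rose from 10.40, 10.32 and 10.27 to 11.14, 11.11 and 11.16 on the 3 arrays of each group (log2 difference 0.81, SE 0.07, limma adjusted p = 0.00239). CCDC80, a secreted matrix protein, went from 6.40, 6.64 and 6.12 to 7.59, 7.27 and 7.42 (1.04, SE 0.15, limma adjusted p = 0.0112). The groups of both genes were well apart. RBMS3, an RNA-binding protein, rose by 0.64 (SE 0.09, limma adjusted p = 0.0116) and FJX1, a secreted homologue of the fly four-jointed protein, by 0.41 (SE 0.07, limma adjusted p = 0.0194).

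GADD45A, a growth arrest gene also driven by p53 and by stress factors, was the member of that signature that fell. Its values were 10.47, 10.37 and 10.47 with vehicle and 9.76, 9.80 and 9.78 with ox-LDL (log2 difference -0.66, SE 0.07, limma adjusted p = 0.004). F3 and GADD45A kept their calls with any 1 array left out. CCDC80 lost its call without ox-LDL replicate 1 or 3, RBMS3 without any 1 ox-LDL array, and FJX1 without any 1 array but vehicle replicate 3. Dropping ox-LDL replicate 1, 2 or 3 left 2, 3 or 2 of the 5 calls in this list.

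A wider list, of genes often reported as YAP-responsive, also held calls in both directions. Of 18 measured, 4 rose (3.48% of all probe sets did), 3 fell (3.29%) and 11 did not pass, with a median of 0.12. EDN1, the endothelin-1 gene, rose the most, from 7.23, 7.56 and 7.29 to 9.16, 9.25 and 9.35 (log2 difference 1.90, SE 0.11, limma adjusted p = 0.000516). DDAH1, an enzyme that degrades an inhibitor of nitric oxide synthesis, rose by 0.58 (SE 0.06, limma adjusted p = 0.00472) and BICC1, an RNA-binding protein, by 0.56 (SE 0.08, limma adjusted p = 0.0102). FGF2, basic fibroblast growth factor, fell from 11.68, 11.51 and 11.36 to 10.55, 10.47 and 10.46 (log2 difference -1.02, SE 0.10, limma adjusted p = 0.00303). The other 3 called were CDC42EP3, which rose, and ETV5 and INHBA, which fell, named after their values were seen. Dropping vehicle replicate 1, 2 or 3 left 4, 4 or 8 called, and dropping any ox-LDL array 3; EDN1, DDAH1 and FGF2 were called in each of these fits and BICC1 not without an ox-LDL array.

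**Figure D3:**
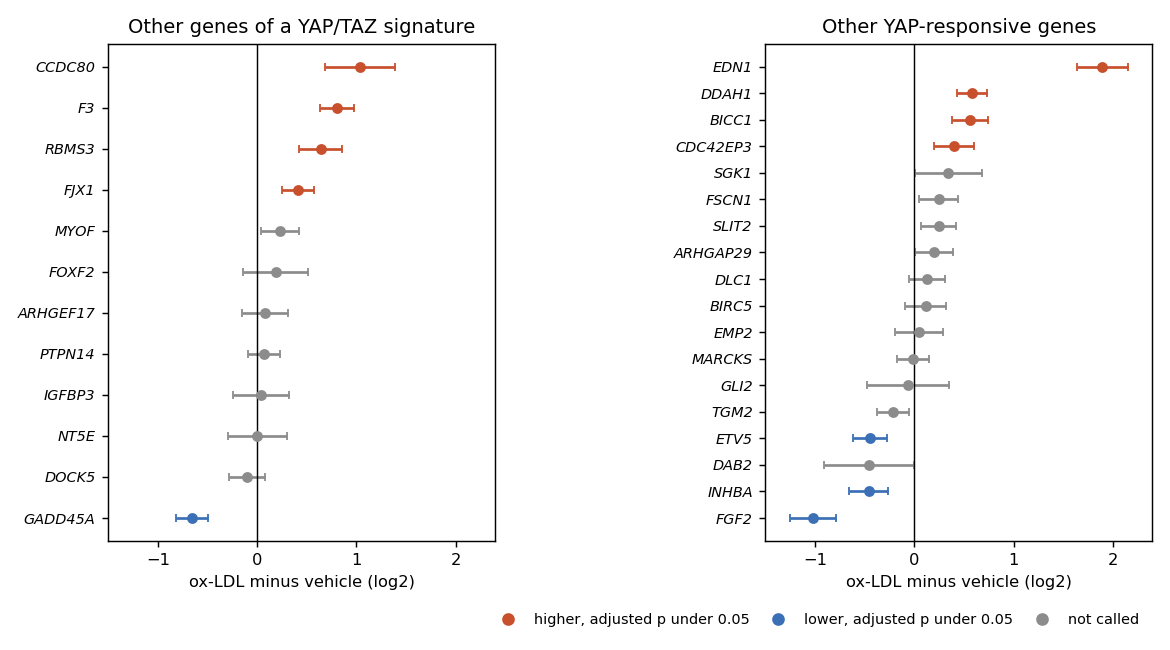
Difference of group means, ox-LDL minus vehicle, in log2 units with 95% confidence intervals, for the 12 measured other genes of a YAP/TAZ signature (left) and 18 other YAP-responsive genes (right); red and blue mark genes higher and lower at a limma adjusted p under 0.05, grey those not called. EDN1 at 1.90 and CCDC80 at 1.04 are the highest, and FGF2 at -1.02 and GADD45A at -0.66 the lowest.

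The genes whose profiles were most like CCN1 and CCN2 over the 6 arrays were taken by Pearson correlation with the mean of these 2 members, among 14371 named probe sets above background. The 5 highest were QSOX1, a secreted thiol oxidase (r = 0.999), FJX1 (0.998), PTPRF, a receptor-type tyrosine phosphatase (0.997), CCBE1, a secreted factor of lymphatic growth (0.996), and NME4, a mitochondrial nucleoside diphosphate kinase (0.996). Their differences ran from 0.26 for QSOX1 to 0.75 for CCBE1, the same size as CCN2. In all, 40 probe sets had an r above 0.99. The 6 arrays fall into 2 groups, and r is given as a description, with no p. FJX1 alone of the 5 is on the lists of YAP targets used here.

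Differences of the coactivator and TEAD transcripts themselves were small, and a gene that did not pass is not shown to be unchanged. Of 8 measured genes, VGLL3, a cofactor that binds TEAD in place of YAP, rose, and 7 did not pass, with a median of 0.16. As 6.77% of all probe sets were called in either direction, 1 call of 8 says little about the list. VGLL3 went from 8.17, 8.01 and 8.05 to 8.56, 8.78 and 8.53 (log2 difference 0.55, SE 0.10, limma adjusted p = 0.0217). YAP1 was 9.77, 9.73 and 9.73 with vehicle and 9.97, 9.89 and 9.86 with ox-LDL, a difference of 0.17 (SE 0.07, limma adjusted p = 0.185). WWTR1 had a difference of 0.20 (SE 0.07, limma adjusted p = 0.138). For both coactivators the ox-LDL arrays all lay above the vehicle arrays, by a fraction of a log2 unit, and neither passed.

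TEAD4 had the largest difference of the TEAD genes at 0.28 (SE 0.08, limma adjusted p = 0.0781), followed by TEAD2 at 0.15, TEAD1 at 0.10 and TEAD3 at -0.05, with a sign that turned without vehicle replicate 3 (0.02) and under array weights (0.05). VGLL4, a tumour suppressor that competes with YAP for TEAD, had a difference of -0.30 (SE 0.08, limma adjusted p = 0.0646). Without vehicle replicate 3, TEAD4 (0.31) was called higher and VGLL4 (-0.25) lower, for a count of 3 called. VGLL3 was called also without vehicle replicate 1; dropping vehicle replicate 2, or an ox-LDL array, left 0 of the 8 called.

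Upstream of YAP, 14 genes of the Hippo pathway were measured. Of these, 2 rose (3.48% of all probe sets did), 1 fell (3.29%) and 11 did not pass, with a median of 0.14. NF2, which encodes merlin, the membrane adaptor that turns the kinases on, rose from 10.39, 10.45 and 10.46 to 10.87, 10.92 and 10.97 (log2 difference 0.48, SE 0.07, limma adjusted p = 0.0114). FRMD6, another membrane adaptor of the pathway, rose by 0.34 (SE 0.07, limma adjusted p = 0.0374). MAP4K4, a kinase that can activate LATS kinases alongside STK3 and STK4, fell by 0.35 on the log2 scale (SE 0.07, limma adjusted p = 0.0389). The list thus held calls in both directions.

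The other 11 genes, STK3, STK4 and LATS1 among them, did not pass. STK3 had a difference of 0.54 (SE 0.20, limma adjusted p = 0.146), with vehicle values of 10.27, 10.13 and 9.48; without the array of the lowest, vehicle replicate 3, the difference was 0.30. STK4 (0.22), TAOK2 (0.23), WWC2 (0.39, or 0.18 without vehicle replicate 3), MOB1B (0.15, or 0.07 without it), WWC1 (0.12), MOB1A (0.08) and RASSF1 (0.03) were positive, and LATS1 (-0.16), the partner kinase of LATS2, and SAV1 (-0.36) negative. TAOK3 had a difference of 0.01, with a sign that turned under a second quantile normalization and cyclic loess. NF2 was called without any 1 vehicle array but not without an ox-LDL array, FRMD6 and MAP4K4 only when vehicle replicate 3 was the array left out. Dropping vehicle replicate 1, 2 or 3 left 1, 1 or 4 genes called, the last with SAV1 among them (-0.46), and dropping any ox-LDL array left 0.

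**Figure D4:**
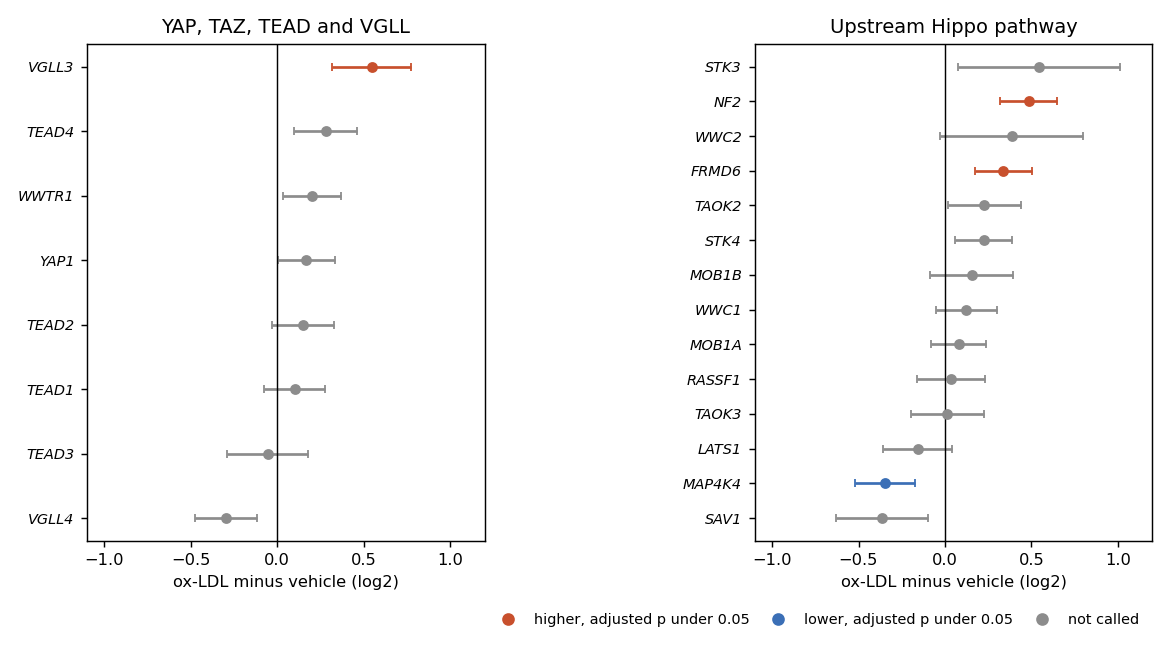
Difference of group means, ox-LDL minus vehicle, in log2 units with 95% confidence intervals, for 8 genes of YAP, TAZ, TEAD and VGLL factors (left) and 14 upstream Hippo genes (right), coloured by call at a limma adjusted p under 0.05. VGLL3, NF2 and FRMD6 are called higher and MAP4K4 lower; YAP1 at 0.17 and WWTR1 at 0.20 are not called.

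Genes related to the members were read beside them. In the CCN family, limma called 0 of the 4 other genes, against 6.77% of all probe sets, and their median was -0.08. Of the 4, 1 had an unadjusted limma p under 0.05. The share of all probe sets at that level was not counted, so nothing is read from it. An unmoderated t statistic called 0, against 1087 of all 21448 probe sets. CCN3 had a difference of 0.21, CCN4 of -0.14, CCN5 of -0.34 (or -0.18 without vehicle replicate 3) and CCN6 of -0.02, a sign that turned with equal array medians and cyclic loess. CCN6 lay at the level of the negative control probe sets in both groups.

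Among relatives of the intracellular members, limma called 0 of 4, against 6.77% of all probe sets, and their median was 0.15. Of the 4, 2 had an unadjusted limma p under 0.05, again without a share over all probe sets, so nothing is read from it. An unmoderated t statistic called 0, against 1087 of all 21448 probe sets. AMOTL1, of the angiomotin family that holds YAP at junctions, had a difference of 0.09 and NUAK1 one of 0.21. LIMD1 and WTIP, LIM proteins related to AJUBA, had differences of 0.23 and -0.08, the latter with a sign that turned without vehicle replicate 3 (0.04) and under array weights (0.12). Whether any of them differs in response from its related member was not tested.

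Of 10 relatives and ligands of THBS1, ANKRD1 and AXL, THBS3 fell and 9 did not pass, with a median of -0.05. With 6.77% of all probe sets called in either direction, 1 call says little about this list. THBS3, a further thrombospondin, had a difference of -0.50 (SE 0.11, limma adjusted p = 0.0456), opposite in sign to THBS1, and THBS2 one of -0.36 (SE 0.10, limma adjusted p = 0.0849). TYRO3, a receptor kinase of the AXL family, had a difference of 0.36 (SE 0.09, limma adjusted p = 0.0554) and GAS6, the ligand of AXL, one of 0.22 (SE 0.07, limma adjusted p = 0.129). The THBS3 call was lost under a second quantile normalization, cyclic loess and without any 1 array but vehicle replicate 1. Dropping vehicle replicate 2, or an ox-LDL array, left 0 called, and dropping vehicle replicate 3 left 3.

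Of 12 measured receptors that bind CCN1, CCN2 or thrombospondin-1, ITGB3, the integrin β3 subunit, fell and 11 did not pass. Over all probe sets 6.77% were called in either direction, so 1 call says little about this list. Its median difference was 0.10. ITGB3 went from 7.13, 7.06 and 7.12 to 6.55, 6.42 and 6.53 (log2 difference -0.61, SE 0.07, limma adjusted p = 0.00629), and kept its call with any 1 array left out. SDC4, a heparan sulphate proteoglycan and co-receptor of CCN1, had a difference of -0.25 (SE 0.07, limma adjusted p = 0.0805) and was called lower without vehicle replicate 3 (-0.27), for 2 called. ITGB2 had a difference of 0.25 and ITGA6 one of 0.29, which was 0.12 without vehicle replicate 3.

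SRF and its coactivators MRTFA and MRTFB act on many genes of the contractile skeleton and share inputs and some targets, CCN1 and CCN2 among them, with YAP and TEAD. Of 15 measured genes of this group, 6 rose (3.48% of all probe sets did), 0 fell (3.29%) and 9 did not pass. The median of the 15 was 0.28. TAGLN, the actin-binding protein transgelin, rose from 8.07 ± 0.06 to 9.63 ± 0.07 (SD, n = 3 each; log2 difference 1.56, SE 0.08, limma adjusted p = 0.000317). TPM1, a tropomyosin, rose by 0.51 (SE 0.08), CNN2, a calponin, by 0.49 (SE 0.08) and FHL2, a LIM-domain cofactor, by 0.45 (SE 0.07). The other 2 that rose were MYL9 (0.49) and VCL (0.37), named after their values were seen. The smooth muscle genes CNN1 (-0.35), ACTG2 (-0.39) and ACTA2 (-0.05), named likewise, did not pass. Without vehicle replicate 3 their differences were -0.23, -0.21 and 0.10.

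TAGLN kept its call with any 1 array left out. Dropping vehicle replicate 1, 2 or 3 left 4, 2 or 10 genes called, and dropping any ox-LDL array left TAGLN alone. SRF itself had a difference of 0.26 and MRTFB one of 0.45, or 0.32 without vehicle replicate 3; neither passed.

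**Figure D5:**
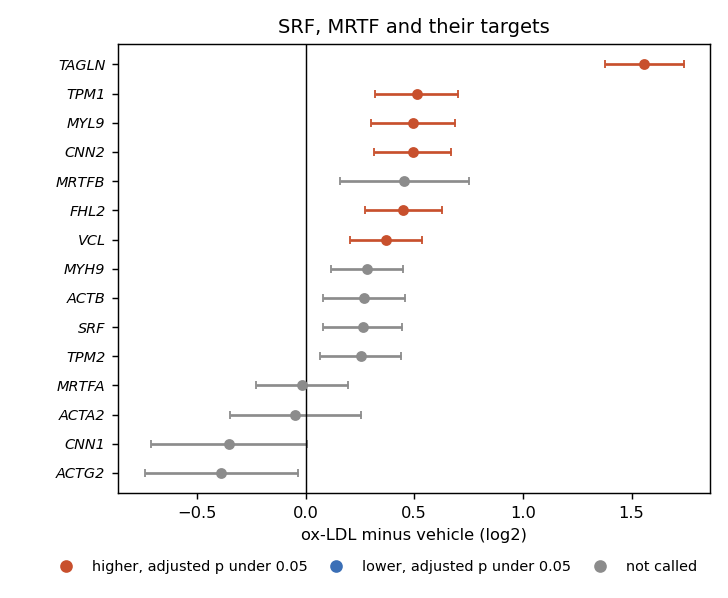
Difference of group means, ox-LDL minus vehicle, in log2 units with 95% confidence intervals, for SRF, its coactivators and target genes, coloured by call at a limma adjusted p under 0.05. TAGLN at 1.56 lies far above the other genes that were called, which lie between 0.37 and 0.51.

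AP-1, the dimer of FOS and JUN proteins, often binds beside TEAD at the same genes. Of its 7 measured subunits, 1 rose (3.48% of all probe sets did), 2 fell (3.29%) and 4 did not pass, with a median of -0.24. JUN rose from 8.90, 8.87 and 8.71 to 9.32, 9.42 and 9.21 (log2 difference 0.49, SE 0.09, limma adjusted p = 0.0271). FOSL1 fell by 0.42 on the log2 scale (SE 0.08, limma adjusted p = 0.0253) and JUND by 0.51 (SE 0.11, limma adjusted p = 0.0401). JUNB had a difference of -0.51 (SE 0.14, limma adjusted p = 0.0746). These calls held only when vehicle replicate 3 was the array left out, where JUNB was also called; without any 1 other array 0 of the 7 were called.

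Markers of cell types were read as a check of the cells; those named here were chosen after their values were seen. KRT7, KRT8 and KRT18, keratins of simple epithelium, and VIM, the mesenchymal filament vimentin, were bright. Of 14 urothelial and epithelial markers, 3 (UPK1B, UPK3A and CDH1) did not exceed the negative controls (95th percentile 5.09) in either group. The other 11 did. In vehicle, FOXA1 was at 8.93, PPARG at 8.70, GATA3 at 7.14, KRT5 at 6.92 and UPK2 at 6.61. EPCAM (5.48 in vehicle, 5.61 with ox-LDL) and UPK1A (5.98 and 5.79) exceeded the controls by little. The leukocyte marker CD3E (5.50 and 5.44) did too, so a level just above the cut does not show expression. GATA3, KRT5 and UPK2 lay below the leukocyte marker CD68 in both groups, so their levels do not show expression either. FOXA1 and PPARG lay above CD68, but in vehicle PPARG did not exceed the fibroblast marker COL1A2 (8.71). limma called 0 of these 14 and 0 of 6 mesenchymal markers, with 1 and 2 at an unadjusted p under 0.05. It called 0 of 6 fibroblast, 5 endothelial and 5 leukocyte markers, with 1 at an unadjusted p under 0.05 in each list. An unmoderated t statistic called 0 in all 5 lists and 1087 of all 21448 probe sets, and limma called 6.77% of them. The share of all probe sets at an unadjusted p under 0.05 was not counted, so nothing is read from those counts. At or below the negative controls were 1 fibroblast marker (LUM), 2 endothelial markers (KDR and TEK) and 1 leukocyte marker (PTPRC). The other markers of these lists lay above them in at least 1 group, with COL1A2 at 8.71 in vehicle and 8.39 with ox-LDL, VWF at 7.27 and 6.97, and CD68 at 8.07 and 7.94. The log2 levels of the fibroblast markers summed to between 36.2 and 38.4 in the vehicle samples and between 35.6 and 36.2 in the ox-LDL samples. For endothelial markers the sums ran from 26.6 to 28.7 and from 26.6 to 26.9, and for leukocyte markers from 30.3 to 32.5 and from 30.04 to 30.4. The highest sum of each of these 3 lists was that of vehicle replicate 3; the part of these markers in the members' differences was not tested.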

How the data were processed

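RNA of 3 vehicle and 3 ox-LDL samples was hybridised to 1 array each. The values the authors deposited are on a log2 scale, as their range shows, and come from RMA, per the submitters' processing notes. For the RMA version, the genome build and the annotation: not given in the sources used here. RMA equalises arrays and pulls dim values together, so a change of total RNA cannot be seen and changes of dim genes are understated. No depth applies to arrays; their number limits the precision.

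Of 24350 probe sets, 2902 controls were left out. The platform annotation gave 1 symbol for 17709 of the other 21448, several for 0 and none for 3739; the gene number of each of the 17709 matched RefSeq, and 0 symbols were updated. The background level was the 95th percentile of 612 negative controls, 5.09.

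Samples were grouped by title. All 6 arrays entered 1 limma model (limma 3.58.1, R 4.3.3, figures with matplotlib 3.10.9), ox-LDL minus vehicle, two-sided. Benjamini-Hochberg adjustment ran over 21448 probe sets, called under 0.05. In simulated data with 200 of 21448 probe sets changed and independent normal noise, the procedure recovered 38% of 1.5-fold and 67% of 2-fold changes. The real fit called 1451, and the adjusted cut depends on how many probe sets change. These shares are therefore not the recovery of the real fit. A gene that did not pass may still have changed. The members, gene lists and tests were chosen with earlier results of these data known. Named are all members, every measured gene of the YAP, TAZ and TEAD, Hippo, CCN and intracellular relative lists, the 4 genes of smallest p in each other list, and the 5 profiles most like CCN1 and CCN2; cell type markers are given by counts, with examples chosen after their values were seen. A gene with several probe sets was represented by the brightest.

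The alternatives tried were: array medians set equal; quantile normalization run again; cyclic loess; a test of the brighter probe sets only (above the median level); a robust fit with an intensity trend; array weights; a plain t statistic without moderation; a block for the replicate number; the selection stated by the study; and each array left out in turn.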

Additional observations from a re-analysis of the deposited data

How the results depend on the processing

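The sign of each member's difference held under every alternative that tested it; the median-level filter drops ANKRD1. Of 1451 probe sets called, leaving out 1 array gave 305 (ox-LDL replicate 2) to 2670 (vehicle replicate 3), fewer samples each time. The same fits gave 2 to 8 members, 2 to 5 other signature genes, 3 to 8 YAP-responsive genes, 0 to 3 YAP, TAZ and TEAD genes, 0 to 4 Hippo genes, 0 to 3 relatives of THBS1, ANKRD1 and AXL, 1 to 2 receptors, 1 to 10 SRF targets and 0 to 4 AP-1 subunits. Dropping vehicle replicate 3 raised the total of 1451, and dropping any other array lowered it. Some list counts stayed as they were. With all arrays, an unadjusted limma p under 0.05 was found for 6 of 12 other signature genes, 13 of 18 YAP-responsive genes and 5 of 8 YAP, TAZ and TEAD genes. The same held for 7 of 14 Hippo genes, 5 of 10 relatives of THBS1, ANKRD1 and AXL and 3 of 12 receptors. It also held for 12 of 15 SRF genes and 4 of 7 AP-1 subunits. The share over all probe sets was not counted.

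Testing only probe sets above the median level called 2608 of 10724, a larger share than the 1451 of 21448 with all probe sets. It called 4 of 8 YAP, TAZ and TEAD genes, 5 of 13 Hippo genes, 2 of 4 relatives and 11 of 13 SRF targets left in the test. The intensity trend with a robust fit called 2649, with 3 YAP, TAZ and TEAD genes, 2 receptors and 10 SRF targets. Array weights called 3962, with 4 YAP, TAZ and TEAD genes, 7 Hippo genes, 1 intracellular relative (NUAK1), 3 other relatives, 2 receptors and 11 SRF targets. Equal array medians gave 2 relatives, cyclic loess 2 receptors. The unmoderated t statistic called 4 members, 0 YAP, TAZ and TEAD genes, 0 relatives, 2 receptors and 1 AP-1 subunit. The selection the study states, applied to the unadjusted limma p of this fit, also asks for a fold. It took 496 probe sets, 4 members, 2 YAP-responsive genes and 1 SRF target. It took 0 genes of the YAP, TAZ and TEAD, Hippo, relatives and AP-1 lists. Beyond fewer genes or samples, the cause was not tested.

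No pairing by replicate number was seen in the values. Deviations of same-numbered arrays correlated at -0.006, 0.03 and 0.02, and 2 of the 6 arrays correlated best with their own number. Whether the arrays were paired by design cannot be told from this. A replicate block called 550 probe sets, 4 members, 3 other signature genes, 3 YAP-responsive genes, 1 SRF target and 0 YAP, TAZ and TEAD, Hippo, relative and AP-1 genes.

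Differences near 0, none called, turned sign. TEAD3 was 0.046 with array weights and -0.13 to 0.021 with 1 array left out, and WTIP 0.12 and -0.25 to 0.040. TAOK3 was -0.042 with a second quantile normalization, -0.048 with cyclic loess, -0.011 with array weights and -0.041 to 0.066 with 1 array left out. CCN6 was 0.014 with equal medians, 0.0085 with cyclic loess and -0.081 to 0.029 with 1 array left out, and RASSF1 was -0.015 to 0.085.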
